A study of Homo sapiens with 12 samples.

Results

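FGA, FGB and FGG encode the Aα, Bβ and γ chains of fibrinogen, and FGL1 encodes fibrinogen-like protein 1, a related secreted protein. These 4 genes were taken by symbol from an RNA-seq table of 56832 genes measured in DU145, an established human prostate cancer cell line. They had been selected on measured values of the same libraries, namely their difference between RAC1 knockout and RAC1-positive cells and the spread of FGB between knockout clones, so those values are given as a description with no test. The study compared 6 lines with 2 biological replicates each, 12 libraries in all. The tested lines were sgRAC1 clone 1, made with the guide sgRAC1_1, and sgRAC1 clones 2 and 3, made with the guide sgRAC1_2, all of genotype RAC1_KO. The lines of genotype WT were sgNTC clones 1 and 2, made with the non-targeting guide sgNTC_1, and the parental cells, and these 3 lines are called RAC1-positive here. The clones came from single cells that had received Cas9 in complex with the guide, so each edited line is the progeny of 1 cell, and all lines were grown in RPMI medium with 10% FBS. RAC1 is a small GTPase that controls the actin cytoskeleton, and the series addresses how VAV2, an activator of RAC1, takes part in the response to EGFR.

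Fibrinogen is a plasma protein made mainly by hepatocytes. Pairs of the 3 chains are joined by disulfide bonds in the endoplasmic reticulum before secretion, and thrombin turns the secreted protein into the fibrin of a clot. In liver the chain genes are transcribed together and respond to interleukin 6 and glucocorticoids in the acute phase. FGL1 is also a product of hepatocytes and is a known ligand of the T cell receptor LAG3.

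The 3 chain genes lie side by side on chromosome 4 in GRCh38 with GENCODE release 29. FGB spans chr4:154562956-154571086 on the plus strand, FGA chr4:154583126-154590766 on the minus strand and FGG chr4:154604134-154612967 on the minus strand, and none of them overlaps another annotated gene. The stretches upstream of FGB and FGA are printed because FGB was measured in every library while FGA was listed at 0 in 6 of 12. Each was taken from RefSeq on GRCh38.p14 and runs 5′ to 3′ towards the gene, and each ends where the first annotated exon begins. The FGB stretch is chr4:154562730-154562955 on the plus strand and the FGA stretch is chr4:154590767-154590992 on the minus strand, 226 bases each. Capitals mark the matches to the motifs described after them.
FGB: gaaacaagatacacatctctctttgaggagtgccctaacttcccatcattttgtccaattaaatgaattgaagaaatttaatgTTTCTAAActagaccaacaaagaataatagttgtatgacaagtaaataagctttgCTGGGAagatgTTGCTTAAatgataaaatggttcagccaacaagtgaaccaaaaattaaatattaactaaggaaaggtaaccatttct
FGA: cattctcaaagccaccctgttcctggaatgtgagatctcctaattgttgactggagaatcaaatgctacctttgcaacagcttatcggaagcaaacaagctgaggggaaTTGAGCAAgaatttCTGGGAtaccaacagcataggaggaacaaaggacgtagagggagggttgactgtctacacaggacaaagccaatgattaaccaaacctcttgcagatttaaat

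The motifs were searched on both strands in the 250 bases before the RefSeq start of each chain gene, and none of the matches in these windows overlapped another. The core of the interleukin 6 response element, CTGGGA, matched once in FGB, once in FGA and at 2 places in FGG, and was present in 28.8% of the 27305 promoters of the same length. The C/EBP core, TTNNGNAA, matched at 3 places in FGB, of which the one nearest the start lies partly in the first exon and is not capitalised, at 1 place in FGA and at 1 in FGG, and was present in 33.6% of promoters. The E-box CACGTG, found in 6.49% of promoters, matched in none of the 3 windows. All 250 bases of the FGG window lie in annotated exons of the gene, so it is not printed. RefSeq gave 2 starts for FGB, of which the first was used. A match of letters is a description of the sequence only.

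Levels are given in TPM, a transcript abundance that is divided by transcript length and scaled to the same total in every library, so that levels of different genes can be set side by side. The guide's target was lower as labelled, with RAC1 at 36.5 to 59.2 TPM in the 6 knockout libraries and 149 to 202 TPM in the 6 RAC1-positive libraries. Over the genes that averaged 1 TPM or more in knockout or RAC1-positive cells, limma on the 3 knockout against the 3 RAC1-positive lines called RAC1 alone at an adjusted p under 0.05, 1 of 17367 genes or 0.00576%, while 2256 genes had an unadjusted p under 0.05. One library stood apart: sgNTC clone 2 replicate 1 had 13608 genes above 0, against 20470 to 25156 in the other 11 libraries, and its median correlation with them was 0.872, against 0.936 to 0.954. Without it limma called 21 genes in place of 1. The epithelial markers KRT8, KRT18, KRT19, EPCAM and CDH1 all reached 1 TPM, with a summed level of 372 to 752 TPM in knockout and 273 to 802 TPM in RAC1-positive libraries, while KLK3 and TMPRSS2 were listed at 0 in all 12.

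FGB, the Bβ chain, was the main fibrinogen transcript of every library. Its level was 3.03 and 5.84 TPM in sgRAC1 clone 1, 16.3 and 15.2 TPM in sgRAC1 clone 2, and 96.9 and 116 TPM in sgRAC1 clone 3. In the RAC1-positive lines it was 25.3 and 17.8 TPM in sgNTC clone 1, 11.3 and 15.6 TPM in sgNTC clone 2, and 45.3 and 41.7 TPM in parental cells. Clone 3 was above all other libraries, clone 1 was below all other libraries, and clone 2 overlapped sgNTC clone 2.

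**Figure D1:**
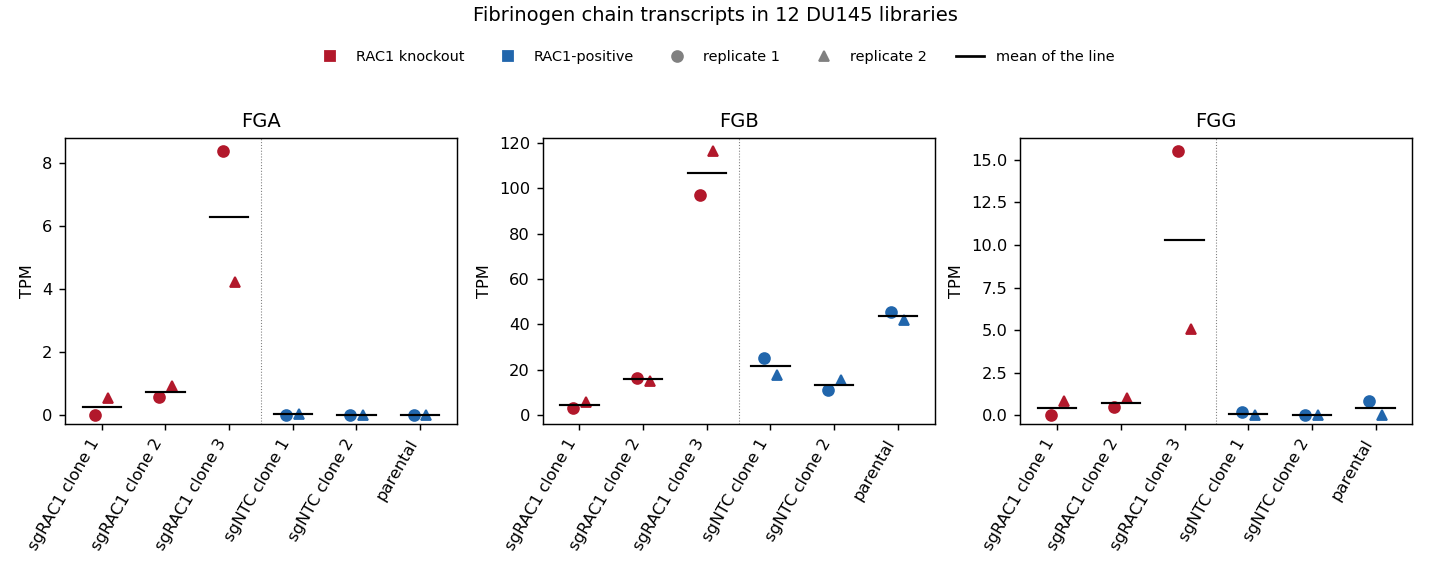
TPM of FGA, FGB and FGG (y axes, separate scales) in the 6 lines (x axis), with a point per library and a bar at the mean of each line, knockout lines in red and RAC1-positive lines in blue. The highest values of all 3 chains are in sgRAC1 clone 3, with FGB at 96.9 and 116 TPM, while the lowest FGB values, 3.03 and 5.84 TPM, are in sgRAC1 clone 1.

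By line, mean FGB was 107 ± 13.7 TPM in sgRAC1 clone 3, 43.5 ± 2.50 TPM in parental cells, 21.6 ± 5.34 TPM in sgNTC clone 1, 15.8 ± 0.729 TPM in sgRAC1 clone 2, 13.5 ± 3.02 TPM in sgNTC clone 2 and 4.43 ± 1.98 TPM in sgRAC1 clone 1 (SD, n = 2 each). In this order the libraries of sgRAC1 clone 2 and sgNTC clone 2 overlapped, and those of the other neighbours did not. The mean of clone 3 was 24.0 times that of clone 1, 6.76 times that of clone 2 and 2.45 times that of parental cells. Relative to the 3 RAC1-positive lines the differences in log2(TPM + 1) were -2.20 in clone 1, -0.53 in clone 2 and 2.15 in clone 3.

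Averaging the knockout clones therefore gave a value that rests on which clones are counted. The mean over lines was 42.3 ± 56.0 TPM in knockout and 26.2 ± 15.5 TPM in RAC1-positive lines (SD, n = 3 each), while the difference of the mean log2(TPM + 1) was -0.20. The sign of the log2 difference turned to 0.81 without clone 1, to 0.24 without parental cells, and stayed negative without clone 3, at -1.37. It was -0.38 in batch 1 and -0.01 in batch 2, and -0.27 without the library that stood apart. In the authors' deposited table, where a positive value means higher in knockout cells (RAC1 stands there at -1.90), FGB had a log2 fold change of 0.67 with a standard error of 0.84. In bulk RNA, a larger share of cells with FGB transcripts and more FGB RNA per cell cannot be told apart.

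FGA, the Aα chain, was at 0 or near it outside the knockout clones. It measured 0 and 0.540 TPM in sgRAC1 clone 1, 0.579 and 0.921 TPM in clone 2, and 8.37 and 4.24 TPM in clone 3. Among the RAC1-positive libraries it was listed at 0 in 5 and at 0.0544 TPM in sgNTC clone 1 replicate 2. The genotypes overlapped through the single knockout library at 0, clone 1 replicate 1. The difference in log2(TPM + 1) from the RAC1-positive lines was 0.30 in clone 1, 0.79 in clone 2 and 2.80 in clone 3, with 1.29 for the mean of the 3 clones and 0.54 without clone 3.

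FGG, the γ chain, had much the same order. It measured 0 and 0.831 TPM in sgRAC1 clone 1, 0.477 and 1.01 TPM in clone 2, and 15.5 and 5.06 TPM in clone 3. In RAC1-positive lines it was 0.167 and 0 TPM in sgNTC clone 1, 0 in both libraries of sgNTC clone 2, and 0.811 and 0 TPM in parental cells. Clone 3 was above every other library, while the libraries of clones 1 and 2 overlapped parental replicate 1. The log2 difference was 0.26 in clone 1, 0.61 in clone 2 and 3.14 in clone 3, with 1.33 for the mean of the 3 clones and 0.43 without clone 3.

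FGL1 was barely detected. It measured 0.138 TPM in sgRAC1 clone 1 replicate 1 and 0.186 TPM in sgRAC1 clone 3 replicate 1, and it was listed at 0 in the other 4 knockout libraries and in all 6 RAC1-positive libraries. It stayed below the filter of 1 TPM, so that 3 of the 4 members entered the tests across genes, FGA and FGG through the knockout group only. FGL1 lies apart from the chain genes, on chromosome 8, and it overlaps 2 other annotated genes. How the authors counted reads of overlapping genes is not stated in the labels.

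The authors' deposited table held the 3 chains but no comparison for FGL1. It gave log2 fold changes of 5.83 for FGA (standard error 1.66) and 5.05 for FGG (standard error 1.61), at mean normalized counts of 8.40 and 12.5, against 159 for FGB. At an adjusted p under 0.05 that table called 2 of the 3 chains, beside 9.74% of its 15140 compared genes. This contrast had chosen the genes, so the count is a description. The fold changes of FGA and FGG in the authors' deposited table are set against a group listed at or near 0, and most of the summed TPM of both genes in knockout libraries came from sgRAC1 clone 3.

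The proportions of the chains differed between lines. In RAC1-positive libraries FGB made up 98.2% to 100% of the summed TPM of the 3 chains. In knockout libraries it made up 100% and 81.0% in sgRAC1 clone 1, 93.9% and 88.7% in clone 2, and 80.2% and 92.6% in clone 3. Even in clone 3 FGB exceeded FGA by 11.6 and 27.4 times and FGG by 6.25 and 23.0 times, while FGG was 1.85 and 1.19 times FGA. The replicates of clone 3 thus went opposite ways, FGB being lower and FGA and FGG higher in replicate 1 than in replicate 2. By level, FGB ranked 1498 and 1378 among all genes in the libraries of clone 3 and 11359 and 8939 in those of clone 1.

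**Figure D2:**
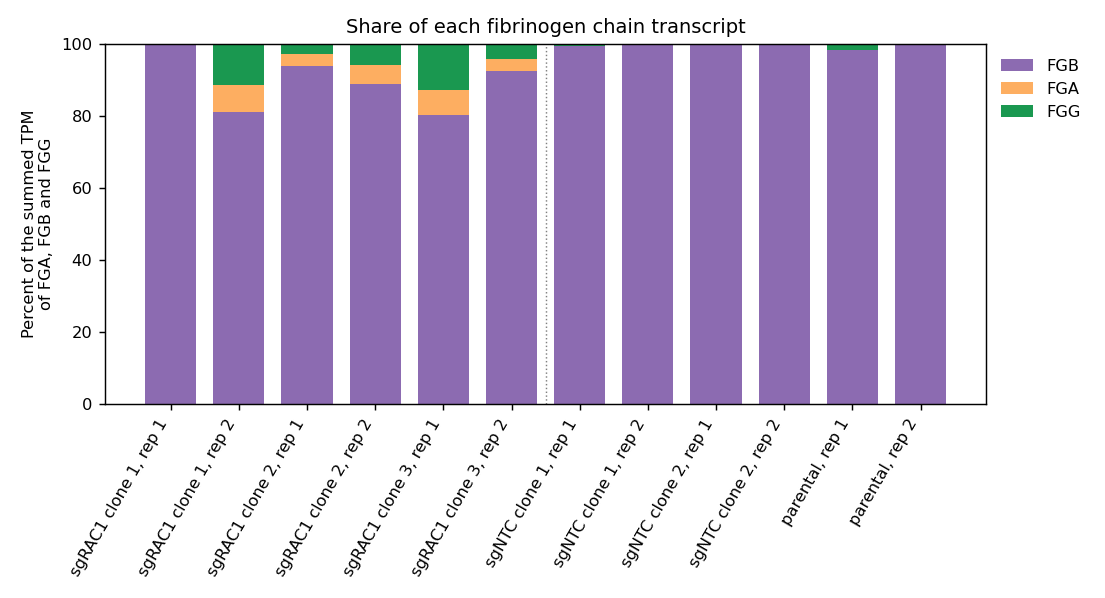
Percent of the summed TPM of FGA, FGB and FGG (y axis) given by each chain in the 12 libraries (x axis), knockout libraries left of the dotted line. FGB fills 98.2% to 100% of each RAC1-positive bar, and the smallest FGB share, 80.2%, is in sgRAC1 clone 3 replicate 1.

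Across the 12 libraries log2(TPM + 1) of FGA and FGG had a Pearson correlation of 0.97, and 0.76 over the 10 libraries without sgRAC1 clone 3. FGB correlated with FGA at 0.63 and with FGG at 0.68 over 12 libraries, and at -0.22 and 0.08 without clone 3. These are descriptions of libraries that share lines in pairs, and FGA and FGG hold many values of 0. FGB was high in both parental libraries, which had FGA at 0 and FGG at 0.811 and 0 TPM. In clone 1 FGB was low in both libraries, with FGA and FGG at 0 in replicate 1 and detected in replicate 2.

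The comparison of sgNTC clones with parental cells shows how far lines that all carry RAC1 differed. FGB was 25.3, 17.8, 11.3 and 15.6 TPM in the 4 sgNTC libraries and 45.3 and 41.7 TPM in the 2 parental libraries, and the groups did not overlap. The difference in log2(TPM + 1) was -1.32 with a standard error of 0.25, and limma gave an unadjusted p of 0.000564 and a Benjamini-Hochberg adjusted p of 0.866 over 17367 genes, so it did not pass the threshold. Over 18 alternatives the adjusted p ran up to 1, and it was lowest, at 0.0544, without sgNTC clone 2 replicate 2. FGA differed by 0.02 and FGG by -0.37, given as values with no test because both genes passed the filter through the knockout lines only. Overall limma called 1 gene (0.00576%), and 680 genes had an unadjusted p under 0.05. The called gene was KYNU, an enzyme of tryptophan breakdown, which was lower in sgNTC clones. With 1 library left out the count ran from 0 to 193, the highest being without sgNTC clone 2 replicate 2.

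Each line had 1 library in each batch, and the replicate number is the batch number. The batch 2 minus batch 1 difference in log2(TPM + 1) within lines was 0.13 for FGB (standard error 0.17, unadjusted p 0.473, adjusted p 0.839) in limma. It was 0.02 for FGA and -0.20 for FGG, again as values with no test. Overall limma called 2 genes (0.0115%), and 1421 genes had an unadjusted p under 0.05. The called genes, both higher in batch 2, were HERPUD1, an endoplasmic reticulum stress gene, and MINPP1, an inositol phosphatase, and leaving out any 1 library gave 0 called genes.

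The 3 neighbours of the cluster past the filter spread less between lines than the chains. PLRG1, a splicing factor gene beside FGB, was at 33.0 to 45.7 TPM in knockout and 33.8 to 48.7 TPM in RAC1-positive libraries. Its log2 difference was 0.03 (limma adjusted p 0.933), with 0.14 in clone 3 alone (adjusted p 0.764) and -0.20 in clone 1 alone (adjusted p 0.789). By line, mean PLRG1 was lowest in clone 1, as FGB was, at 34.6 TPM. In the other lines it ran from 36.7 TPM in sgNTC clone 2 to 44.7 TPM in sgRAC1 clone 2. Whether PLRG1 follows FGB between lines was not tested. LRAT, a retinol-esterifying enzyme beside FGG, was at 0.908 to 1.75 TPM in knockout and 0.939 to 2.39 TPM in RAC1-positive libraries, with a log2 difference of -0.06 (limma adjusted p 0.918). MAP9, a microtubule-associated protein, was at 2.77 to 4.68 TPM and 1.24 to 4.62 TPM in the same order, with a log2 difference of 0.31 (limma adjusted p 0.491). Of the 10 nearest protein-coding genes, 5 on each side, these 3 passed the filter, and RNF175, SFRP2, DCHS2 and NPY2R were listed at 0 in all libraries. Of the 10 neighbours of FGL1, 8 were in the table and 5 passed the filter, among them ASAH1, acid ceramidase, at 34.7 to 44.9 TPM in knockout and 20.5 to 33.9 TPM in RAC1-positive libraries (log2 difference 0.53, limma adjusted p 0.193). PDGFRL had the largest log2 difference of these 5, at 1.15 (limma adjusted p 0.2045). It was at 1.19 to 4.07 TPM in knockout and 0 to 1.30 TPM in RAC1-positive libraries, and it passed the filter through the knockout lines only.

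**Figure D3:**
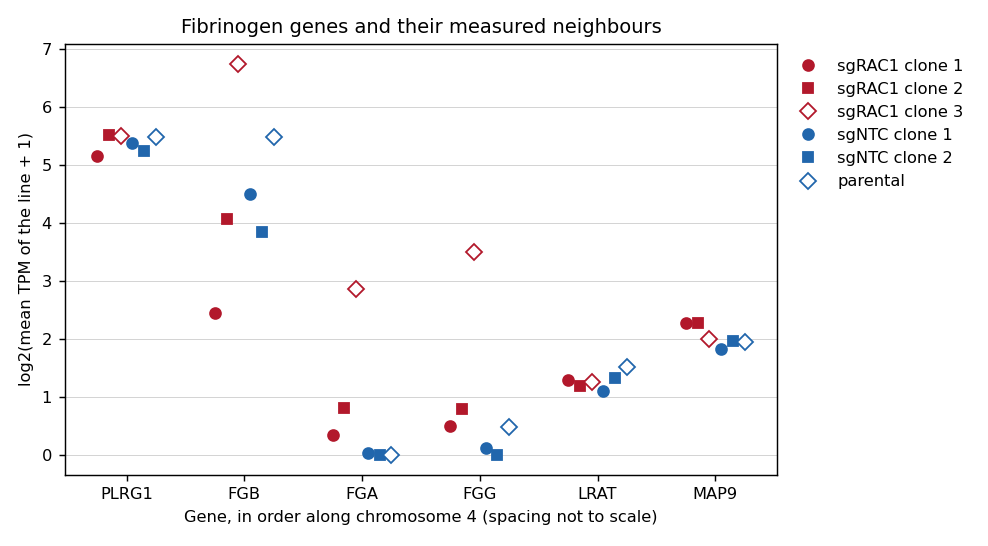
Level of the chain genes and of their 3 neighbours past the filter (y axis, log2 of the line's mean TPM + 1), in their order along the chromosome (x axis, not to scale), with a point per line. The lines spread widely for FGB, FGA and FGG and lie close together for PLRG1, at 33.0 to 48.7 TPM over all libraries.

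The genes whose levels followed each chain most closely over the 12 libraries were ranked by Pearson correlation of log2(TPM + 1), as a description. For FGB these were CHID1 (0.84), DPF2 (0.84), BAIAP2-AS1 (0.82), DFNA5 (0.82) and THBS3 (0.81), and CHID1 stood at 0.80 and DPF2 at 0.71 without sgRAC1 clone 3. For FGA they were SFTPB (0.97), RP11-474B16.1 (0.96), RNF157 (0.96), RNU6-301P (0.95) and 1 unnamed clone-based locus (0.95). SFTPB, which encodes a surfactant protein of the lung, was at 0.333 to 3.43 TPM in knockout and 0 to 0.146 TPM in RAC1-positive libraries. For FGG they were RNU6-301P (0.93), the same unnamed locus (0.93), SFTPB (0.93), GPI (0.93) and CD14 (0.93). RNU6-301P and the unnamed locus were above 0 in 2 libraries only, so their rank rests on those libraries.

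Markers of other cell types were read beside the chains. Of 7 hepatocyte markers, ALB and SERPINC1 were listed at 0 in all 12 libraries and only APOA1 reached 1 TPM anywhere. Their summed level was 0.431 to 1.65 TPM in knockout and 0 to 1.47 TPM in RAC1-positive libraries. Of 5 megakaryocyte and platelet markers, GP9 and GP1BB were at 0 throughout, and the sum was 0 to 2.20 TPM in knockout and 0 to 0.844 TPM in RAC1-positive libraries. Of 4 leukocyte markers, PTPRC and CD3E were at 0 throughout, and the sum, 0.607 to 4.50 TPM in knockout and 0 to 1.21 TPM in RAC1-positive libraries, was mostly CD14. Of 4 fibroblast markers none reached 1 TPM and LUM was at 0 throughout.

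Genes that act with fibrinogen in the liver and the clot were read from 8 lists, with the fit over all genes. In the comparison of knockout with RAC1-positive lines limma called no gene of any list, beside 0.00576% of all genes. With all 12 libraries and the line as a random block limma called 369 of 17367 genes. Among them were 6 of the named list genes, SERPINA1, ANXA2, IL11, OSMR, ICAM1 and SERPINE2. The call of IL11 is a description, since this gene passed the filter only through the group where it was higher. With the replicate block added it called 320 genes and 5 of these 6, SERPINE2 being lost at an adjusted p of 0.0688. Both fits count the libraries of a line in part as replicates of the genotype. Genes were named for the smallest p of each list in the knockout comparison, so more calls among them than among all genes were set in advance. Some list genes passed the filter through 1 genotype only. These were F13A1, F8 and ITGB3 through the knockout lines, and IL11 and FIBCD1 through the RAC1-positive lines. The filter favoured their direction, so the medians of their lists are in part set by it. The median log2 difference of the tested members was 0.39 for coagulation factors (4 tested of 14), 0.26 for fibrinolysis (5 of 12), 0.19 for interleukin 6 family signalling (16 of 19), 0.24 for the transcription factors known at the hepatic fibrinogen genes (7 of 14), 0.34 for other proteins with a fibrinogen-like domain (3 of 19), 0.37 for fibrinogen and FGL1 receptors (6 of 11) and -0.02 for endoplasmic reticulum folding (13 of 13), and it was 0.02 over all genes. Contrasts of single clones with the RAC1-positive lines, whose p-values measure the spread between libraries of a line, called 84 genes or 0.484% in clone 1, 34 or 0.196% in clone 2 and 188 or 1.08% in clone 3. With 1 library left out these counts ran from 25 to 313, 13 to 185 and 28 to 670 in the same order of clones, each being highest without sgNTC clone 2 replicate 2. These contrasts were added after the data were seen, and they share the RAC1-positive libraries.

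The other acute phase proteins of plasma were nearly absent. Of 19, 7 were listed at 0 in all libraries, CRP and SERPINA3 among them, and SAA1 and HP reached 2.41 and 0.681 TPM at most. SERPINA1, the α1-antitrypsin gene, was the 1 member past the filter. It measured 34.3 and 42.0 TPM in sgRAC1 clone 1, 36.9 and 37.5 TPM in clone 2, and 58.3 and 61.6 TPM in clone 3. In RAC1-positive lines it measured 9.46 and 11.1 TPM in sgNTC clone 1, 8.35 and 10.4 TPM in sgNTC clone 2, and 22.0 and 14.5 TPM in parental cells. Every knockout library was above every RAC1-positive one, unlike any fibrinogen chain. Over the 3 lines of each genotype the log2 difference was 1.79 with a standard error of 0.28 and a limma adjusted p of 0.143. The adjusted p was 0.00251 with the line as a random block and 0.00665 with the replicate block added. In both fits the libraries of a line count in part as replicates of the genotype. The authors' deposited table gave 1.77. SERPINA1 rose in each clone by limma's clone contrasts, by 1.58 in clone 1 (adjusted p 0.0136), 1.56 in clone 2 (adjusted p 0.0168) and 2.23 in clone 3 (adjusted p 0.00165). The call in clone 3 held in all 18 alternatives. That in clone 1 was lost without either of its own libraries, at adjusted p 0.0729 and 0.184, and that in clone 2 was lost in 7 of 18 alternatives, without any 1 of the 6 knockout libraries or without sgNTC clone 1 replicate 1, with adjusted p up to 0.193.

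Of the coagulation factors, F5, F9, F11 and VWF were at 0 throughout, and F2, which encodes the prothrombin that yields the fibrin-forming protease, reached 0.253 TPM at most. F3, tissue factor, was at 11.2 to 41.1 TPM in knockout and 8.53 to 28.1 TPM in RAC1-positive libraries (log2 difference 0.54, limma adjusted p 0.571). F13A1, the catalytic subunit of the factor that cross-links fibrin, measured 4.28 and 3.46 TPM in sgRAC1 clone 1 and at most 0.244 TPM in any other library. It was higher in clone 1 by 2.22 (limma adjusted p 0.0197). F13A1 averaged 1.35 TPM in knockout and 0.0437 TPM in RAC1-positive lines. It thus passed the filter through the knockout lines only, so this p-value is a description. The call of F13A1 was lost without either library of clone 1, at adjusted p 0.123 and 0.0908, and with a pseudocount of 0.1, at 0.0689. Clone 1 was thus highest in F13A1 and lowest in FGB. F8 and F12 were at 0.329 to 3.29 TPM over all libraries and did not pass the test, with limma adjusted p 0.691 and 0.835. F8 averaged 1.06 TPM in knockout and 0.74 TPM in RAC1-positive lines, so it passed the filter through the knockout lines only. Its p-value is thus a description.

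Of the genes that dissolve fibrin, PLG, the plasminogen gene, was at 0 throughout. PLAU, the urokinase gene that activates plasminogen, was at 93.0 to 108 TPM in knockout and 54.6 to 117 TPM in RAC1-positive libraries, and the groups overlapped (limma adjusted p 0.644). ANXA2 and S100A10 encode the partners of a plasminogen-binding complex at the cell surface. ANXA2 was at 1130 to 1413 TPM in knockout and 850 to 1061 TPM in RAC1-positive libraries. It rose by 0.58 in clone 3 (limma adjusted p 0.0132), a call lost without either library of that clone, at 0.135 and 0.118. Between genotypes its adjusted p was 0.198, and it was 0.0141 with the line as a random block and 0.0231 with the replicate block added. S100A10 was at 823 to 1013 TPM in knockout and 655 to 1001 TPM in RAC1-positive libraries (limma adjusted p 0.484). SERPINE2, an inhibitor of urokinase and thrombin, was at 2.19 to 4.21 TPM in knockout and 1.15 to 2.10 TPM in RAC1-positive libraries (limma adjusted p 0.278, and 0.0484 with the line as a random block).

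Interleukin 6 is the main inducer of fibrinogen in the acute phase. IL6 measured 3.97 and 6.20 TPM in sgRAC1 clone 1, 10.2 and 9.39 TPM in clone 2, and 27.6 and 9.04 TPM in clone 3, against 2.40 to 4.29 TPM in the 6 RAC1-positive libraries. Clones 2 and 3 were above the RAC1-positive range and clone 1 overlapped it. The difference was 2.04 in clone 3 (limma adjusted p 0.0485). That call was lost in 15 of 18 alternatives, with adjusted p up to 0.406, the value without clone 3 replicate 1, and it held with a filter of 5 TPM and without clone 3 replicate 2 or sgNTC clone 2 replicate 2. OSMR, the receptor subunit for oncostatin M, was at 37.1 to 50.8 TPM in knockout and 22.6 to 38.5 TPM in RAC1-positive libraries (limma adjusted p 0.199). OSMR reached 0.0308 with the line as a random block and 0.0276 with the replicate block added. IL11, a cytokine of the same family, was at 0.179 to 1.44 TPM in knockout and 1.76 to 4.11 TPM in RAC1-positive libraries, and the groups did not overlap, with a log2 difference of -1.13 (limma adjusted p 0.215). IL11 reached 0.0270 with the line as a random block and 0.0383 with the replicate block added. It passed the filter through the RAC1-positive lines only, so its p-values are a description. IL6ST, the shared signalling receptor, and STAT3, the transcription factor it activates, differed by 0.10 and 0.00 (limma adjusted p 0.853 and 0.995). The JAK1 kinase was at 12.9 to 20.4 TPM in knockout and 9.44 to 20.2 TPM in RAC1-positive libraries (limma adjusted p 0.489).

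Among the transcription factors, HNF4A and FOXA3 were at 0 in 11 of 12 libraries. CEBPB was at 11.4 to 21.6 TPM in knockout and 11.7 to 15.5 TPM in RAC1-positive libraries, and its log2 difference was 0.06 (limma adjusted p 0.862). NR3C1, the glucocorticoid receptor, was at 23.5 to 31.7 TPM in knockout and 18.3 to 30.7 TPM in RAC1-positive libraries (limma adjusted p 0.432). FOXA1 was at 10.9 to 14.9 TPM in knockout and 9.38 to 12.4 TPM in RAC1-positive libraries (limma adjusted p 0.533). USF1 was at 7.87 to 19.0 TPM in knockout and 6.96 to 12.1 TPM in RAC1-positive libraries (limma adjusted p 0.411). None of the factors past the filter was called in any single clone.

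**Figure D4:**
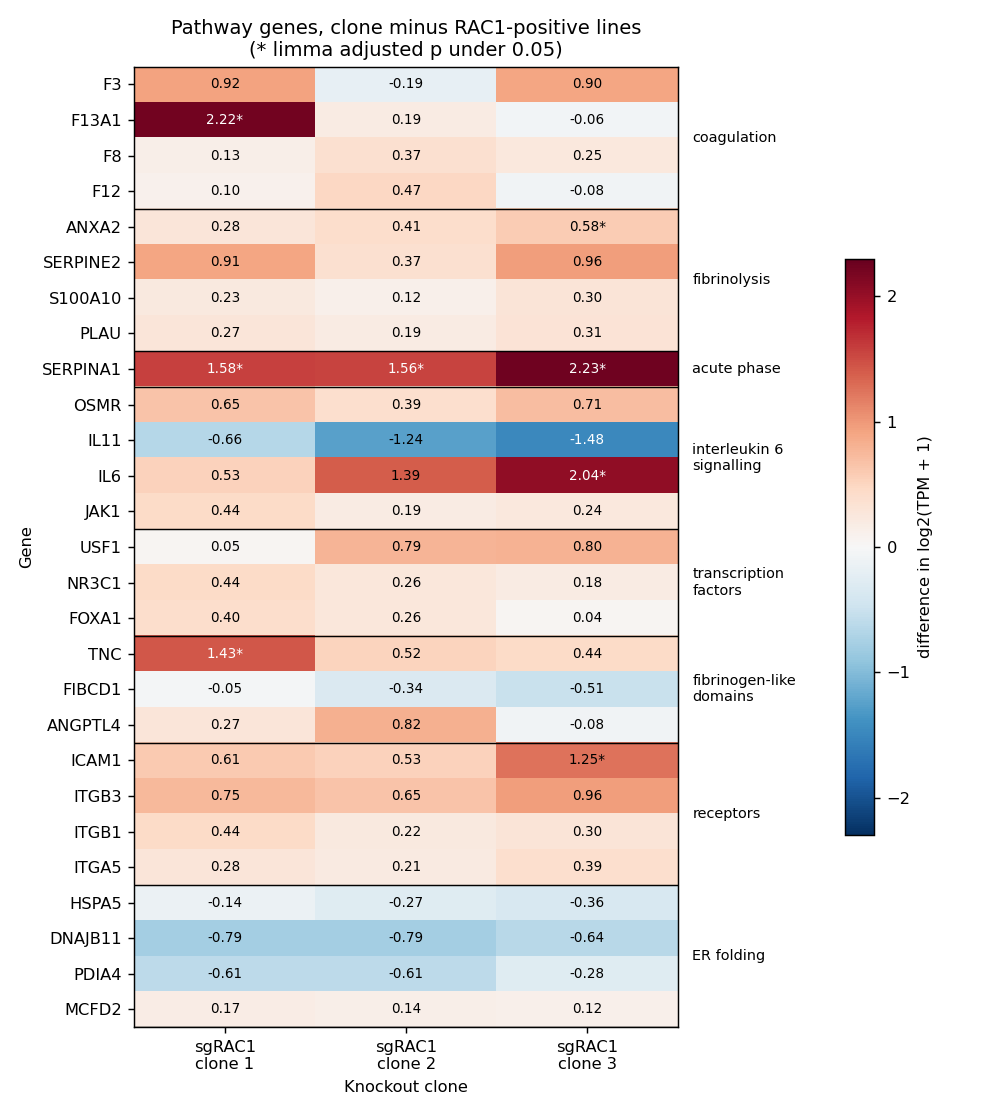
Difference in log2(TPM + 1) of each sgRAC1 clone (columns) from the RAC1-positive lines for the named genes of the 8 lists (rows), with red for higher and blue for lower values in the clone and an asterisk at an adjusted p under 0.05 in limma. SERPINA1 has an asterisk in all 3 clones, F13A1 and TNC in clone 1 alone, and ANXA2, IL6 and ICAM1 in clone 3 alone. F13A1 passed the filter through the knockout lines only, so its asterisk is a description.

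Proteins that bind fibrinogen or share its domain were measured as well. ICAM1, an adhesion receptor of fibrinogen, was at 25.0 to 61.6 TPM in knockout and 18.7 to 27.0 TPM in RAC1-positive libraries and was highest in clone 3, at 48.5 and 61.6 TPM. It rose in clone 3 by 1.25 (limma adjusted p 0.0285). That call was lost without any 1 of 8 libraries, namely both of sgRAC1 clones 1 and 3, sgNTC clone 1 and parental cells, with adjusted p up to 0.210. Between genotypes its adjusted p was 0.227, and it was 0.0429 with the line as a random block and 0.0421 with the replicate block added. ITGB3, the β3 integrin of fibrinogen receptors, was at 0.651 to 1.53 TPM in knockout and 0 to 0.392 TPM in RAC1-positive libraries, and the groups did not overlap (log2 difference 0.79, limma adjusted p 0.276). ITGB3 passed the filter through the knockout lines only. ITGB1 and ITGA5, the subunits of a fibronectin receptor that also binds fibrin, did not pass the test (limma adjusted p 0.350 and 0.417). LAG3, the receptor of FGL1, reached 0.197 TPM at most. TNC, the tenascin C gene with a fibrinogen-like domain, measured 27.5 and 22.8 TPM in sgRAC1 clone 1, 12.8 and 12.9 TPM in clone 2, and 10.6 and 13.8 TPM in clone 3, against 6.95 to 10.6 TPM in RAC1-positive libraries. It rose in clone 1 by 1.43 (limma adjusted p 0.0154), a call lost without either library of clone 1, at 0.151 and 0.0954. ANGPTL4 and FIBCD1, which carry the same domain, did not pass the test (limma adjusted p 0.714 and 0.676). FIBCD1 passed the filter through the RAC1-positive lines only, so its p-value is a description.

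The list of endoplasmic reticulum genes for folding, assembly and export had all 13 genes past the filter. HSPA5, the chaperone BiP, was at 1120 to 1773 TPM in knockout and 1486 to 1900 TPM in RAC1-positive libraries, with a log2 difference of -0.26 (limma adjusted p 0.271). PDIA4, a disulfide isomerase, was at 174 to 386 TPM in knockout and 259 to 532 TPM in RAC1-positive libraries (limma adjusted p 0.299). DNAJB11, a co-chaperone of BiP, was at 11.2 to 28.8 TPM in knockout and 19.1 to 63.0 TPM in RAC1-positive libraries (limma adjusted p 0.289). The cargo receptor partner MCFD2 was at 66.3 to 84.6 TPM in knockout and 63.6 to 77.0 TPM in RAC1-positive libraries (limma adjusted p 0.515). None of the 13 was called in any single clone. Whether the level of FGB bears on these genes was not tested.

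The authors' deposited table called some list members at an adjusted p under 0.05, beside 9.74% of its genes. It called none of the 4 coagulation factors it compared, 2 of 6 fibrinolysis genes, both higher in knockout cells, and SERPINA1, the 1 acute phase protein compared. Of 16 genes of interleukin 6 signalling it called 3 higher and 1 lower, of 7 transcription factors 1 higher, of 4 proteins with a fibrinogen-like domain 1 higher, of 6 receptors 3 higher, and of 13 folding genes 3 lower. How the authors set up that comparison, and whether libraries of a line were treated as separate samples, is not stated in the labels.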

How the data were processed

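Per the labels' protocols, RNA was reverse transcribed with SMARTScribe and the cDNA tagmented. bcl2fastq, STAR 2.6.1d, DESeq2 and GRCh38 appear in the submitters' processing notes. Which tool counted the reads, on which annotation and with which strand setting, is not given in the sources here. The authors deposited a TPM value per gene and library for 56832 genes. TPM keeps no depth, so the depth of each library is unknown and no counting interval is given. For 15140 genes the authors also deposited their own comparison, whose columns are, per the file headers, those of DESeq2: a signal (the mean of normalized counts), the log2 fold change, the standard error, the test score, and the p-value before and after adjustment.

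Here the TPM were tested with limma 3.58.1 in R 4.3.3 on log2(TPM + 1), with trended variances and Benjamini-Hochberg adjustment at 0.05, over the 17367 genes that averaged 1 TPM or more in knockout or RAC1-positive cells. On this scale the change of a gene around 1 TPM or lower comes out too small. The knockout comparison used the mean of each line (3 against 3). The comparisons of sgNTC clones with parental cells and of single clones used all 12 libraries with a mean per line, and the batch comparison kept the line as a fixed block. The 2 libraries of a line share the clone, so the p-values of those fits measure the spread between libraries of a line. The script was tested on simulated data. Clone contrasts were added after the data were seen. As an alternative, the knockout comparison was run on all 12 libraries with the line as a random block. That fit uses a correlation between libraries of a line that is shared by all genes. Libraries of a line then count in part as replicates of the genotype, so its p-values can be too low for 3 against 3 lines.

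The members and the 8 gene lists were chosen with earlier results of these data known. Named genes were the members, RAC1, up to 4 genes per list with the smallest p in the knockout comparison, the 5 genes most correlated with each tested member, and the 5 nearest protein-coding genes on each side. Other list members named in the text were chosen for their role, after their values were seen, and some genes of the lists are not reported here. Promoters and gene order came from RefSeq on GRCh38.p14, and gene positions from GENCODE release 29. All 3 chain genes matched a promoter there. The replicate number marks the batch per the labels, and same-numbered deviations correlated between -0.13 and 0.30 over 15 pairs of lines (median 0.026), so each test was also run with this number as a block.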

Additional observations from a re-analysis of the deposited data

Results flagged for a closer look

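Each value here is that of a library far from the other 5 of its genotype, where the gap to the nearest library exceeds 0.625 of the group's range. For 6 independent values with a normal spread, chance would flag about 1 in 20 groups. The groups here hold 3 lines of 2 libraries each, and some hold many values of 0, so that rate does not apply to them. Of 63 groups tested, 7 had such a library. FGG was 15.5 TPM in sgRAC1 clone 3 replicate 1, with the next knockout library at 5.06 TPM. FGG was 0.811 TPM in parental replicate 1, with the next RAC1-positive library at 0.167 TPM. FGA was 0.0544 TPM in sgNTC clone 1 replicate 2, where the other RAC1-positive libraries were at 0, so any value above 0 would have been flagged. IL6 was 27.6 TPM in sgRAC1 clone 3 replicate 1, the library that also had the highest FGG and FGA. In sgNTC clone 2 replicate 1, the library with the fewest genes above 0, JAK1 was 20.2 TPM and NR3C1 30.7 TPM. DNAJB11 was 63.0 TPM in parental replicate 2.

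The knockout clones moved FGB in opposite directions from the RAC1-positive lines, with a difference in log2(TPM + 1) of -2.20 in sgRAC1 clone 1 and 2.15 in sgRAC1 clone 3. Both libraries of clone 1 were below and both libraries of clone 3 above all 6 RAC1-positive libraries. The genes had been chosen for this spread, and the difference was not tested.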

How the results depend on the processing

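Of 1200 values recomputed under an alternative, 1028 were labelled the same. A difference with a test had to keep its direction and its side of the threshold, and a count of called genes had to stay within a set ratio. A knockout difference of a member, given with no test, had to keep its direction and move by less than the SD between lines of a genotype. That SD is wide for FGB, so its value of -1.37 without clone 3 was labelled the same. The log2(TPM + pseudocount) differences of the members between knockout and RAC1-positive lines depended on the pseudocount: with 0.1 they were 3.33 for FGA, 2.93 for FGG and 0.46 for FGL1, and FGL1 stood at 0.015 with 5, at 0.14 in batch 1 and at 0 in batch 2. The FGB difference ran from -1.37 to 0.81 when 1 line was left out. The count of genes called between knockout and RAC1-positive lines was 0 with a pseudocount of 0.1, with median-of-ratios scaling, without a filter and in batch 1, 2 with a pseudocount of 5, 3 with a filter of 5 TPM, 33 in batch 2 and 0 to 21 with 1 library or line left out. It was 369 with all 12 libraries and the line as a random block, and 320 with the replicate block added. The replicate block left 18 genes in sgRAC1 clone 2 and moved the adjusted p of FGB in sgNTC clones against parental cells to 0.461. It ended the call of IL6 in clone 3, at 0.0744, and of no other named gene that was called in a clone.

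Between sgNTC clones and parental cells 2 genes were called with a pseudocount of 0.1, 3 without a filter and 0 to 193 with 1 library left out. With 1 library left out the calls ran from 25 to 313 in clone 1, 13 to 185 in clone 2 and 28 to 670 in clone 3, the highest each without sgNTC clone 2 replicate 2, and a pseudocount of 0.1 gave 10 in clone 2. Between batches 0 genes were called with median-of-ratios scaling or any library left out, and 22 with a filter of 5 TPM. Reversed batch differences were -0.047 for FGA with a pseudocount of 5, and with 1 library left out -0.096 to 0.20 for FGA, -0.00014 to 0.25 for FGB and -0.42 to 0.048 for FGG. FIBCD1 turned to 0.15 in batch 1 and F12 ran from -0.084, without sgNTC clone 1, to 0.31 with 1 line left out. The cause was not tested. TPM keeps no depth, so values near 0 carry no counting limit.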
